A study of Mus musculus with 4 samples.

Results

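The genes described here encode the initiation factors (eIF) and elongation factors (eEF) of cytosolic protein synthesis, with the kinases, binding proteins and methyltransferases that carry their names. They were chosen by symbol, as Eif or Eef followed by a digit, without Eif2s3x and Eif2s3y. This gave 47 of the 8251 genes that have a probe set with a single symbol on the array. Together they were measured by 64 probe sets, each a group of short probes summarised as 1 intensity. Th1 cells are the CD4 helper T cells known for interferon gamma, and the 4 arrays hold RNA of a Th1 clone from the mouse. Control arrays 1 and 2 hold RNA of the normal, quiescent clone, and anergic arrays 1 and 2 hold RNA of the clone after it was made anergic with anti-CD3 antibody bound to a plate. The study asked which genes differ in T cell anergy, a state of poor response to a repeated stimulus. A clone stands for 1 T cell line, and no source used here gives the time from antibody to RNA extraction. The labels do not say whether the 2 arrays of a group are separate cultures, so every p-value reflects array-to-array spread that may be technical only.

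Initiation starts when eIF4F, made of the cap-binding protein eIF4E, the scaffold eIF4G and the helicase eIF4A, recruits the small ribosomal subunit to the mRNA cap. The subunit carries eIF3, eIF1, eIF1A and the initiator tRNA, which eIF2 brings in its GTP form. At the start codon eIF5 promotes GTP hydrolysis by eIF2, which then leaves, and eIF5B joins the large subunit. eEF1A then delivers each aminoacyl-tRNA and eEF2 moves the ribosome along. Activated T cells raise protein synthesis strongly as they leave quiescence. Much of that control acts on the proteins, by phosphorylation of eIF2 alpha, of the eIF4E-binding proteins and of eEF2, which RNA levels do not show.

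No translation factor gene passed the test between anergic and control cells in the fit that left array numbers out. Of the 47 genes, 41 passed the filter on low values and 0 of these had an adjusted p (Benjamini-Hochberg over all genes) under 0.05 in limma, where 2.17% of all 5583 genes tested were called, 1.33% as higher and 0.842% as lower. Taken singly, 0 of their 51 tested probe sets passed, against 1.34% of all probe sets. With so few members, counts of 0 cannot be told apart from these background shares. The unadjusted p was under 0.05 for 4 of the 41 (9.76%) and for 12.7% of all genes. These 4 were Eif1ax, higher in anergic cells, and Eif1b, Eif3a and Eif2b1, lower. The same 4 passed in a fit with the array number as a block, which called 12.7% of all genes. The labels do not say whether a number marks anything shared. Elsewhere, tests are from the fit without this block unless another fit is named. Differences are given as log2(intensity + 29.15) in anergic minus control cells, with limma's standard error (SE) over 2 arrays a group, and they ran from -0.79 (Eef1a2) to 0.73 (Eif1ax). Each was smaller than 0.98, the smallest difference that passed in any gene without the block. Since the arrays were scaled to a common mean before deposit, a change in total RNA per cell would not be seen, and fewer cells of a type cannot be told apart from less RNA per cell.

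By sign, 29 of the 41 tested genes were lower in anergic cells and 12 were higher. Among all genes tested 58.1% were lower. The median difference was -0.20 for the translation factors and -0.085 for all genes. Centring each array on its median gave -0.091 and 0.021, and quantile normalization gave -0.13 and -0.031. This order of the medians reversed without control array 1, where they were -0.046 and -0.14. It also reversed without anergic array 2, where they were close, at -0.13 and -0.15. Both anergic arrays lay below both control arrays in 12 of the 41 genes (29.3%) and above both in 4 (9.76%), against 24.0% and 17.3% of all genes. Taking both directions, 39.0% of the translation factors and 41.3% of all genes had groups that did not overlap, so the share was near the background.

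**Figure D1:**
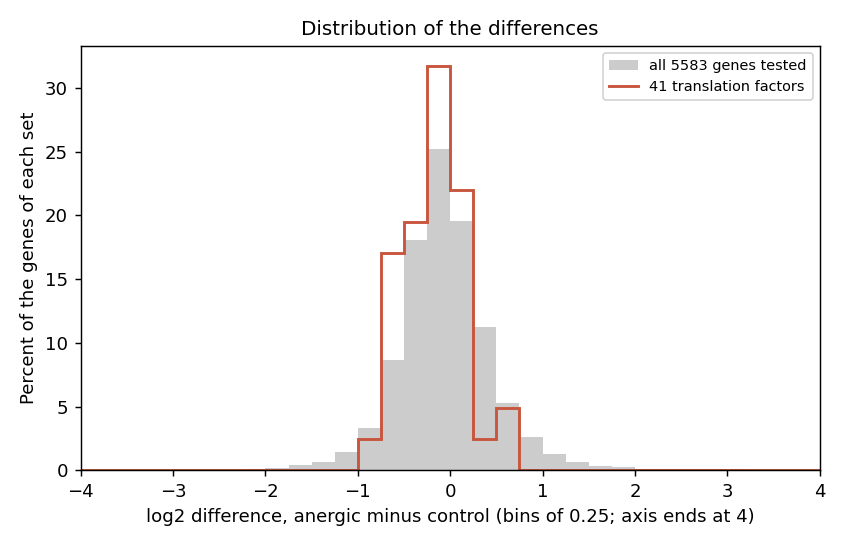
Distribution of the log2 differences between anergic and control cells for the 41 tested translation factor genes (red outline) and all 5583 genes tested (grey), as a percent of each set. The translation factors lie between -0.79 and 0.73, while the grey distribution reaches beyond both ends.

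**Figure D2:**
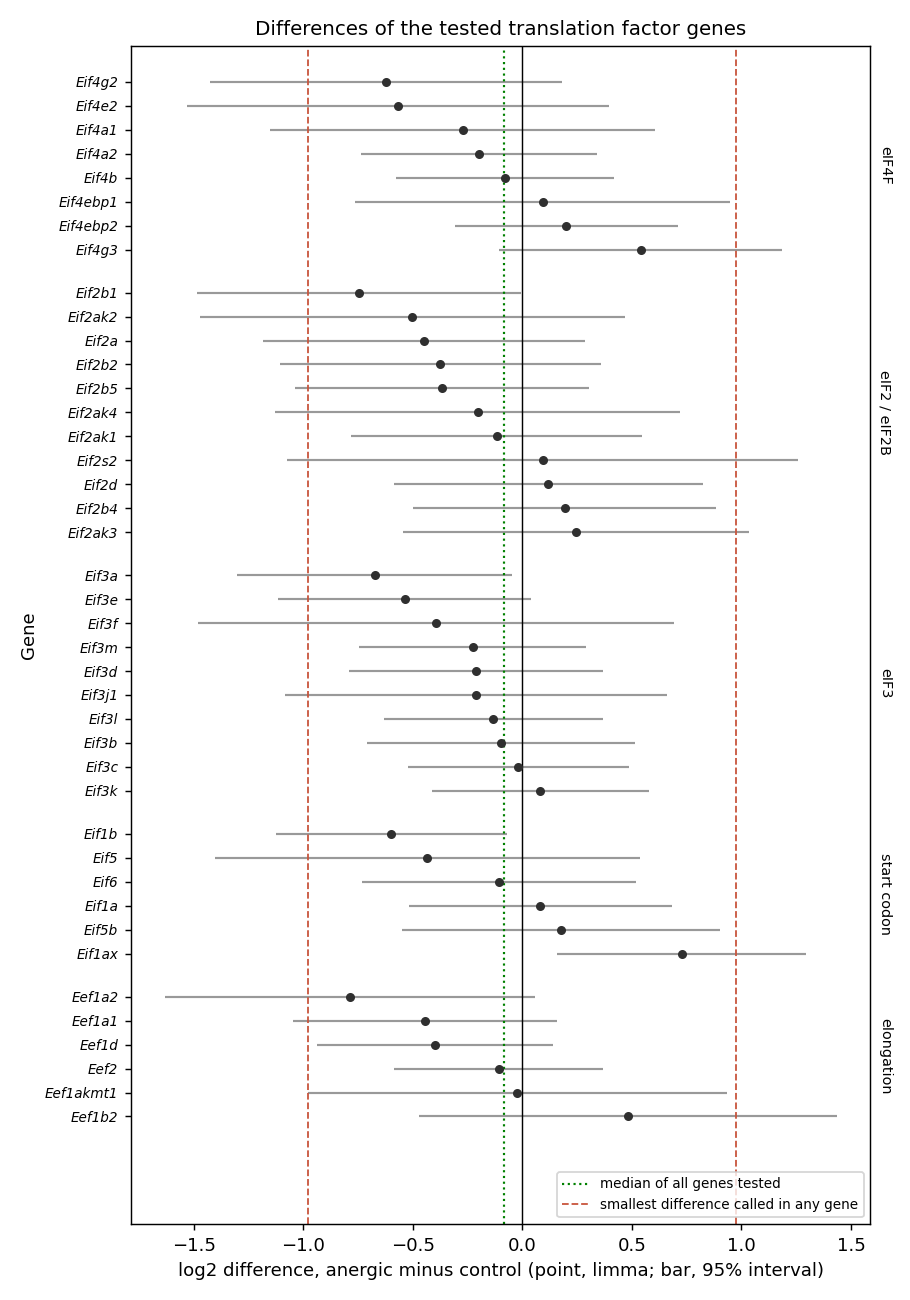
Log2 difference of each tested translation factor gene with its 95% interval from limma, grouped by role. The dotted line is the median of all genes (-0.085). The dashed lines mark 0.98, the smallest difference called in any gene without the block, in each direction.

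The intervals bound what the 4 arrays could show. For 19 of the 41 genes (46.3%) the whole 95% interval lay within 1 log2 unit. The same held for 41.6% of all genes. Standard errors of the translation factors ran from 0.21 (Eef2) to 0.52 (Eif2s2), so for genes such as Eef1a2, whose interval reached -1.63, a larger change remained within the error.

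Several promoters of these genes carry the E-box that the growth regulator Myc and its relatives bind, and Myc itself is given because it fell in these cells. This gene was picked after its values were seen. Its intensity was 377.6 and 516.5 on the control arrays and 66.4 and 101.5 on the anergic arrays. The log2 difference was -2.08 ± 0.39 (SE, adjusted p = 0.0251 in limma). Myc passed the filter on low values only through its control values, since its anergic values alone average below the cut. RefSeq promoter windows (GRCm38.p6) matched 39 of the 47 genes, and the 250 bases before each start were searched for CACGTG, which reads the same on both strands. Among the 39, 9 (23.1%) had it in at least 1 window, against 9.93% of 6577 genes of the array and 6.86% of all 27025 genes of the table. The stretches around the motif nearest the start are shown for 6 of the 9 genes, chosen to cover cap binding, start codon selection, eIF3 and elongation, with the motif in capitals.
Eif4e (chr3:138527184-138527229, plus strand): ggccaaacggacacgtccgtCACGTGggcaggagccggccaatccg
Eif4a1 (chr11:69672587-69672632, minus strand): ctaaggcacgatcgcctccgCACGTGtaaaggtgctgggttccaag
Eif1b (chr9:120492562-120492605, plus strand): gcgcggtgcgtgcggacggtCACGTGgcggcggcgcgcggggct
Eif3k (chr7:28981907-28981952, minus strand): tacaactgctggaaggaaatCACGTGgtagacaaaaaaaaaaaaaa
Eif3f (chr7:108934327-108934372, plus strand): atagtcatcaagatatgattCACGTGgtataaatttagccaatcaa
Eef2 (chr10:81176568-81176613, plus strand): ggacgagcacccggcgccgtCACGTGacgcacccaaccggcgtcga
The motif lies 18 bases before the start in Eif1b, 37 in Eef2, 38 in Eif3k, 58 in Eif4e, 62 in Eif3f and 183 in Eif4a1. Eif4e has 2 copies in its window.

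Of the 9 genes with this motif, 5 were tested: Eef2, Eif1b, Eif3f, Eif3k and Eif4a1. Their median difference was -0.27 with 4 lower and 1 higher, against -0.20 with 20 lower and 9 higher in the 29 tested genes with a promoter window and no such motif. The spread of both groups overlapped, from -0.60 to 0.082 and from -0.79 to 0.73, and 0 genes were called in either. For comparison, the ETS motif CCGGAAGT, searched on both strands, was in 10.3% of the 39 genes and 5.72% of the array's genes. The CCAAT box, CCAAT on either strand, was in 30.8% and 40% of them. These matches describe letters in the sequence, and the genes set beside them were not matched for base composition. Binding of Myc to these motifs in these cells was not tested.

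Factors of start codon selection and subunit joining held the gene with the smallest p. Eif1ax, which encodes an X-linked form of eIF1A that helps the small subunit scan, was at 1104 and 1019 on the control arrays and at 2024 and 1557 on the anergic arrays. Both anergic arrays were thus above both controls, and the log2 difference was 0.73 ± 0.25 (SE, adjusted p = 0.247). Its other probe set did not show this, with 390.3 and 207.9 in control and 289.3 and 232.7 in anergic cells and a difference of -0.13. With the mean of both probe sets Eif1ax was at 0.30. Eif1a, which encodes a closely related eIF1A, was at 0.083 and -0.077 by its 2 probe sets, and whether these probe sets tell the near-identical genes apart was not tested.

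Eif1b, a close relative of the start codon fidelity factor eIF1, was lower in both anergic arrays. Its intensity was 2279.8 and 2328 in control and 1402 and 1632.5 in anergic cells, with control arrays that nearly coincide. The log2 difference was -0.60 ± 0.24 (SE, adjusted p = 0.315). Eif5 encodes the GTPase-activating protein of eIF2. It was at 2918 and 1531 in control and at 2495 and 970.3 in anergic cells, high on the arrays numbered 1 and low on those numbered 2. The groups overlapped and the difference of -0.43 ± 0.43 (SE) was 0.026 without control array 1 and 0.24 without anergic array 2. Eif5b, the GTPase of subunit joining, was at 0.18 and Eif6, an anti-association factor of the large subunit, at -0.11, and both overlapped between groups.

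**Figure D3:**
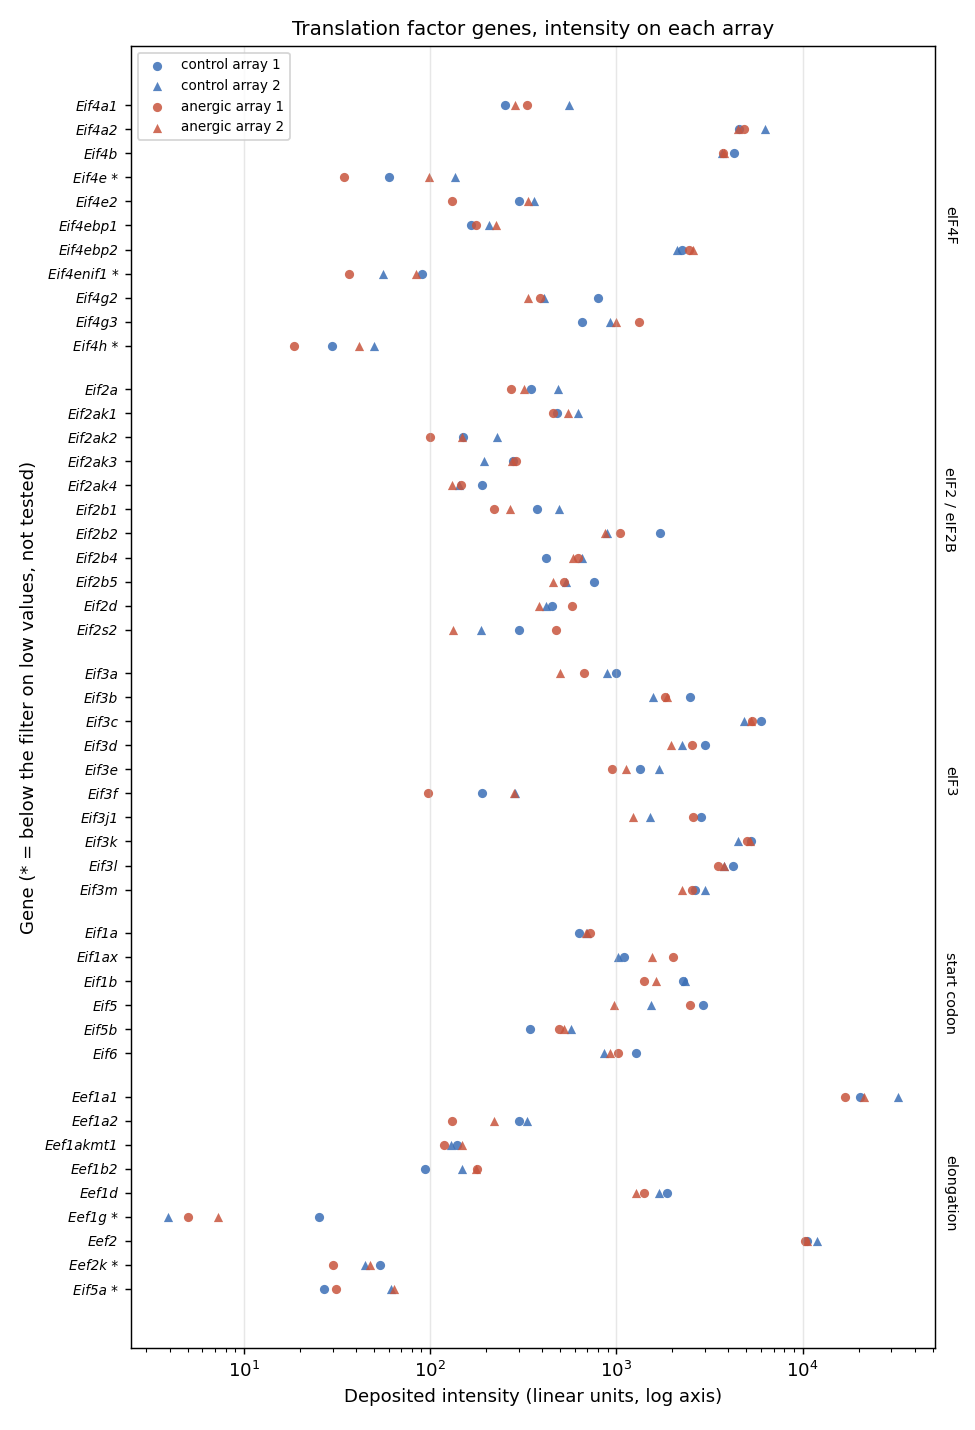
Deposited intensity of the brightest probe set of each of the 47 translation factor genes on every array (log axis), with control arrays in blue, anergic arrays in red, circles for arrays numbered 1 and triangles for arrays numbered 2. Eif1ax and Eif1b show groups that do not overlap, while Eif5 and Eif3j1 separate the circles from the triangles.

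Genes of eIF2, of its exchange factor eIF2B and of the eIF2 alpha kinases were all tested, 11 of 11, with 7 lower and 4 higher. Of the 4 measured subunits of eIF2B, which reloads eIF2 with GTP, 3 were lower and 1 was higher, with overlapping 95% intervals. Eif2b1, the alpha subunit, was at 373.4 and 491.1 in control and at 220.4 and 269.5 in anergic cells. The groups did not overlap, and the difference was -0.75 ± 0.33 (SE, adjusted p = 0.391). Eif2b5, the catalytic epsilon subunit, was lower by both of its probe sets (-0.37 and -0.38) without overlap. Eif2b2 was at -0.37 with a control array 1 (1715) far above the other 3 arrays (868.7 to 1042). Eif2b4, the delta subunit, was at 0.19 with overlapping groups.

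The 4 kinases that phosphorylate eIF2 alpha and so slow initiation ran from -0.50 to 0.24. Eif2ak2 (PKR, activated by double-stranded RNA) was at 150.1 and 228.4 in control and at 100.4 and 148.4 in anergic cells, a difference of -0.50 ± 0.43 (SE, adjusted p = 0.738). Those groups were separated by only the small gap between 148.4 and 150.1. Eif2ak3 (PERK, the kinase of the unfolded protein response) was at 278.4 and 195.8 in control and 289.6 and 275.6 in anergic cells, a difference of 0.24 ± 0.35. Eif2ak4 (GCN2, the sensor of uncharged tRNA) was at -0.20 and Eif2ak1 (HRI, the haem-regulated kinase) at -0.12, both with overlap. Eif2s2, the beta subunit of eIF2, was the least precise gene, with 475.4 on anergic array 1 and 133.7 on anergic array 2, and its difference was 0.094 ± 0.52 (SE). Eif2a, a separate initiator tRNA binding factor, was at -0.45 without overlap, and Eif2d, also a tRNA-delivering factor, was at 0.12 and -0.21 by its 2 probe sets.

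eIF3, the large scaffold that holds the small subunit and the mRNA together, had 10 measured genes, all tested, of which 9 were lower and 1 higher. Their median was -0.21, against -0.11 with each array centred on its median, where 7 were lower, and -0.26 with quantile normalization. Without control array 1 it was -0.024, with 6 lower, and without control array 2 it was -0.30, with 10 lower. Eif3a, the largest subunit, was at 996.1 and 894 in control and at 673.5 and 500.1 in anergic cells. Both anergic arrays were below both controls, and the difference was -0.67 ± 0.28 (SE, adjusted p = 0.346). Eif3e, another core subunit, was at 1349.6 and 1686 in control and at 946.6 and 1125 in anergic cells, also without overlap, with a difference of -0.54 ± 0.26 (SE, adjusted p = 0.445).

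Eif3c, a subunit of the octameric core, was at 6019.8 and 4837.5 in control and at 5351 and 5312 in anergic cells, a difference of -0.017 with a 95% interval of -0.52 to 0.49. Eif3k (0.082), Eif3b (-0.095), Eif3l (-0.13), Eif3d (-0.21) and Eif3m (-0.23) lay close to it, and of these only Eif3m had groups that did not overlap. Eif3j1 encodes a loosely bound subunit, with a near-identical copy in the mouse genome that these probes may not tell apart. Its intensity was 2841 and 1516.5 in control and 2596 and 1232 in anergic cells, so the arrays within each group lay further apart than the groups did (-0.21 ± 0.39, SE). Eif3f, at -0.40 ± 0.49 (SE), rested on a low anergic array 1 (97.7, against 283.1 on anergic array 2), and was at 0.25 without it.

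Of the 11 genes of the cap complex and its inhibitors 8 were tested, 5 lower and 3 higher. Differences of the scaffold genes had opposite signs. Eif4g3, one of the eIF4G scaffolds, was at 658.3 and 927.9 in control and at 1328 and 996.7 in anergic cells. Groups did not overlap, and the difference was 0.54 ± 0.29 (SE, adjusted p = 0.506). Eif4g2, a scaffold relative without the eIF4E-binding part, was at 797.1 and 407.7 in control and at 387.5 and 336.4 in anergic cells. Its difference of -0.62 ± 0.36 (SE, adjusted p = 0.551) rested largely on control array 1.

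Helicase and cap-binding genes overlapped between the groups. Eif4a1 was at 254.2 and 554.8 in control and at 332.2 and 285.4 in anergic cells (-0.27 ± 0.39, SE) and was at 0.25 without control array 2. Its single probe set bears the suffix r, which the array's maker gave where some design rules were dropped. Eif4a2, which encodes the near-identical second helicase, was at -0.20 and the helicase cofactor gene Eif4b at -0.079. Eif4e2, a cap-binding relative of eIF4E, was at -0.57 ± 0.43 (SE) and at 0.023 without anergic array 1, where it was low (131.8). Its other probe set was at -0.19.

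The eIF4E-binding proteins block eIF4F assembly until mTOR phosphorylates them. Eif4ebp1 was at 166.5 and 207.3 in control and at 177.7 and 225.8 in anergic cells, a difference of 0.094 with a 95% interval of -0.76 to 0.95. Eif4ebp2 was at 2263 and 2119.9 in control and at 2469.5 and 2575 in anergic cells. These groups did not overlap, but the difference was small (0.20 ± 0.23, SE, 95% interval -0.31 to 0.71, adjusted p = 0.834). Its second tested probe set, at 0.13, also had groups that did not overlap, and the third was below the filter.

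Among 9 genes of elongation, 6 were tested, with 5 lower and 1 higher, but with quantile normalization 2 were lower and 4 higher. Eef1a1, the main tRNA-delivering factor, was at 20410.5 and 32722 in control and at 16898 and 21342.5 in anergic cells. Control array 2 stood above the other 3 arrays, and the groups overlapped. The difference was -0.44 ± 0.27 (SE, adjusted p = 0.58). It was called without control array 1 (-0.78, adjusted p = 0.023, in a fit that called 4.81% of all genes), was -0.10 without control array 2 and was 0.011 with quantile normalization. Some bright transcripts of other genes also peaked on control array 2, and others did not. The 3' probe set for Gapdh among the array's controls was at 24098 on control array 2 and at 13520.2 to 15842 on the other arrays. Pabpc1, the poly(A)-binding protein gene, was at 17989 against 11416 to 13458. The T cell genes Thy1, Cd3g and Cd3e were instead highest on control array 1, at 13440, 11878 and 10102. The geometric mean of 9 bacterial hybridisation controls was 1972 on control array 2 and 870.4 to 1014 on the other arrays. Their part in the value of Eef1a1 was not tested.

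Eef2, the translocase, had the smallest standard error of the 41 tested genes in the fit with the intensity trend. It was at 10590.3 and 11889 in control and at 10262 and 10573 in anergic cells, so that the groups were close without overlapping. The difference was -0.11 ± 0.21 (SE, 95% interval -0.58 to 0.37), and it was 0.081 with quantile normalization. Eef1a2, known as the form of eEF1A in muscle and neurons, was at 299.3 and 333 in control and at 131.4 and 220 in anergic cells. Groups did not overlap, and the difference of -0.79 ± 0.38 (SE, adjusted p = 0.444) was the largest in size of all 41. Whether its probe set also picks up Eef1a1 was not tested.

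The exchange factor of eEF1A gave mixed values. Eef1d, its delta subunit, was at 1878 and 1687 in control and at 1416 and 1272 in anergic cells, without overlap (-0.40 ± 0.24, SE, adjusted p = 0.578). Eef1b2, its beta subunit, was at 0.48 by one probe set and at -0.21 by the other, the first of them with the suffix r. Eef1akmt1, a methyltransferase of eEF1A, was at -0.022 ± 0.43 (SE).

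In all, 6 genes stayed below the filter on low values, which kept probe sets above the 40th percentile of mean log2 signal. Eif4e, the cap-binding protein itself, was at 60.3 and 136.4 in control and at 34.5 and 98.8 in anergic cells, with overlap. Its other probe set, with the suffix r, was at 50 and 78 in control and at 16.3 and 37.8 in anergic cells. That probe set did not overlap between groups and was also below the filter. Eif5a, which helps ribosomes through stalling sequences, was at 27.1 and 62.1 in control and at 31.4 and 63.8 in anergic cells. In all 3 of these probe sets the arrays numbered 2 were the higher ones in each group. Eif4h, a helicase cofactor, was between 18.6 and 50.3, Eif4enif1, which shuttles eIF4E to the nucleus, between 36.7 and 90.9, Eef2k, the kinase that inhibits eEF2, between 30 and 54.2, and Eef1g, the gamma subunit of the exchange factor, between 3.9 and 25.5. With no filter their differences ran from -0.43 (Eif4e) to 0.066 (Eif5a), and 0 of 47 members passed. These low signals do not measure transcript abundance against other genes, since probe sets differ in response.

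Most differences were no larger than the gap between arrays of a group. The difference was larger than both within-group gaps in 11 of 41 members (26.8%) and in 30.4% of all genes. The median gap was 0.37 in control and 0.21 in anergic cells, against 0.37 and 0.33 for all genes. The median size of the difference between groups was 0.23 (0.28 for all genes). Of the 10 members with over 1 tested probe set, Eif1a, Eif1ax, Eif2d, Eif5b, Eef1b2 and Eif4b had probe sets of opposite sign.

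**Figure D4:**
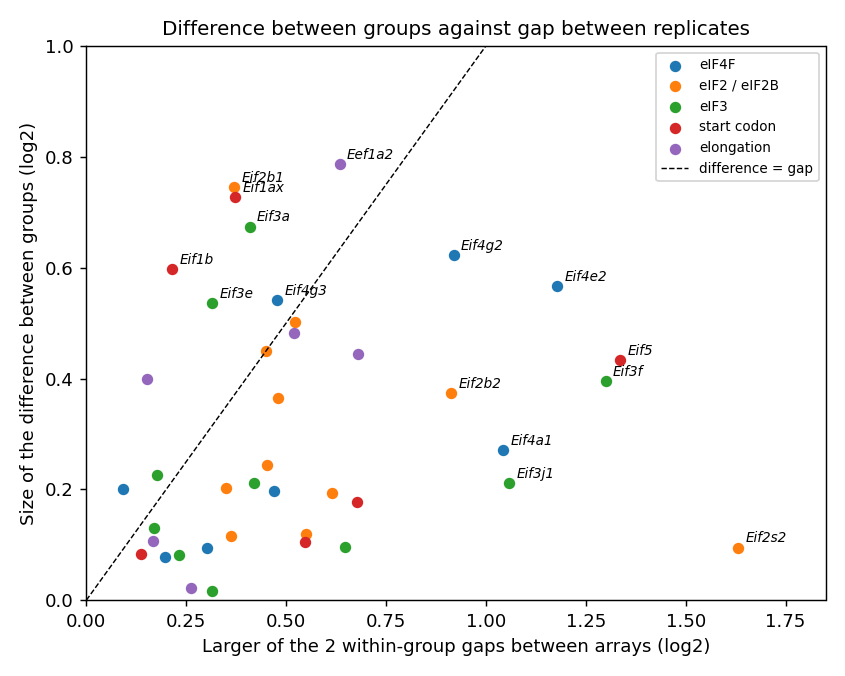
Size of the log2 difference between groups against the larger of the within-group gaps (control array 1 to 2, or anergic array 1 to 2) for the 41 tested translation factor genes, coloured by role. The 11 genes above the dashed line differ by more than both gaps, among them Eif1b, Eif1ax, Eif2b1 and Eif3a, while Eif5, Eif3f, Eif3j1 and Eif2s2 lie far to the right.

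Other genes of protein synthesis did not pass either, in lists too short to be read against the 2.17% of all genes called. The unadjusted p was under 0.05 in 12.7% of all genes. Of 23 tested genes for regulators of translation, termination and recycling 0 were called and 2 had an unadjusted p under 0.05, with 16 lower and 7 higher and a median of -0.16. The smallest p-values belonged to Gspt1, the release factor eRF3a (0.76 ± 0.30, SE, adjusted p = 0.317), Ppp1r15a, the stress-induced phosphatase subunit GADD34 that reverses eIF2 alpha phosphorylation (0.66 ± 0.28), and Mknk2, a kinase of eIF4E (0.55 ± 0.25). Ppp1r15a was at 516.5 and 515.2 in control and at 941 and 737.5 in anergic cells, without overlap. Of 4 tested mitochondrial translation factors 0 were called and 1 had an unadjusted p under 0.05. The mitochondrial elongation factors Tufm (0.73 ± 0.26) and Tsfm (0.36 ± 0.28) were higher in both anergic arrays. Another, Gfm1, was at 0.32 ± 0.39 with groups that overlapped, and the initiation factor gene Mtif2 was lower in both anergic arrays (-0.34 ± 0.31). Over all genes, 17.3% were higher and 24.0% lower without overlap. Without control array 1, 2 of the 4 were lower and 2 higher.

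Aminoacyl-tRNA synthetases charge tRNAs with amino acids. All 21 measured genes of that list, which includes the scaffold genes Aimp1 and Aimp2, were tested. Of these 0 were called, 3 had an unadjusted p under 0.05, 18 were lower and 3 higher, and their median was -0.28. Both anergic arrays lay below both controls in 11 of the 21, where 24.0% of all genes did. With quantile normalization it was 10 of 21, with 22.5% of all genes, and with each array centred on its median 5 of 21, with 16.4%. Cars, the cysteine enzyme, was at 62.2 and 64.4 in control and at 238.1 and 199 in anergic cells. The difference was 1.42 ± 0.44 (SE, adjusted p = 0.178). Cars passed the filter on low values only through its anergic values, since its control values alone average below the cut. Tars, the threonine enzyme, was at 830.9 and 830.8 in control and at 490 and 558.3 in anergic cells (-0.64 ± 0.27, SE), and Vars, the valine enzyme, was at -0.55 ± 0.25 (SE).

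Median intensities of the arrays ran from 134.2 to 191.2. The 7 measured T cell markers, Cd3d, Cd3e, Cd3g, Cd247, Cd2, Cd4 and Thy1, all passed the filter, with a summed intensity (0 called) of 37882 to 50635 in control and 37222 to 40679 in anergic cells. Of these Cd3d, at 0.68, Cd4, at 0.27, and Cd247, at 0.23, were higher without overlap, and Thy1, at -0.60, was lower without overlap. Over all genes, 17.3% were higher and 24.0% lower without overlap. Cd3d and Thy1 had an unadjusted p under 0.05 in limma. The defining CD8 gene Cd8a was between 6.2 and 18. Summed markers of B cells were at 743.5 to 1339.6 in control and 622.3 to 804.2 in anergic cells. Among them Ighm was at 266.1 and 747.5 in control and at 162.6 and 259 in anergic cells. The other tested B cell markers, Cd79a at -0.25 and Ms4a1 at 0.12, overlapped between the groups. The 8 markers of macrophages and dendritic cells summed to 1326 to 1681 and 1513 to 2123. Of these 1 was called in limma, the lysosomal gene Cd68, higher in anergic cells (2.31 ± 0.36, SE, adjusted p = 0.0103). Its intensity was 71 and 91.3 in control and 497.6 and 531.5 in anergic cells. Cd68 passed the filter only through its anergic values, since its control values alone average below the cut. Lyz2, the lysozyme gene of myeloid cells, was below the filter, at 129.1 and 73.3 in control and at 11.7 and 11.4 in anergic cells. The other tested markers of that list overlapped between the groups, with Itgax at 0.31, Csf1r at 0.033, Cd14 at -0.13 and Fcgr1 at -0.26. Adgre1, below the filter, was at 24 and 20.2 in control and at 36.4 and 36.9 in anergic cells. Itgam, a macrophage integrin, was between 8.2 and 33.6. The 5 CD8 and NK markers summed to 278.7 to 1118 and 984.5 to 1301, largely Klrk1. Markers of erythroid cells and granulocytes summed to 638.5 to 1199.9 and 656.8 to 1001. Those of fibroblasts summed to 1685 to 1885 and 1365 to 2086, largely Col1a2, whose probe set bears the suffix r.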

How the data were processed

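Per the labels' protocols, biotinylated cRNA was prepared from Trizol-extracted total RNA. The authors deposited linear intensities, 1 for each of 12488 probe sets on 4 arrays, already scaled, as the trimmed means of 499.6 to 499.7 show. For scanner software and probe summary, the sources used here give nothing. The number of arrays, 2 a group, limits precision; an exact permutation test cannot give a two-sided p under 0.333. Any 2 arrays shared 12 to 18 identical values.

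Names come from the platform annotation in GEO, with gene IDs looked up in RefSeq (GRCm38.p6), and 10833 of 12422 had 1 symbol. Intensities were transformed as log2(value + 29.15), the median of the arrays' 20th percentiles. Controls and probe sets at or below the 40th percentile were left out. Each gene was represented by its brightest kept probe set, and 5583 genes were fitted with limma 3.58.1 in R 4.3.3 (intensity trend, two-sided, Benjamini-Hochberg adjustment over all genes, threshold 0.05). The fit was run on simulated arrays with known differences and independent noise of equal spread. That run cannot show the effect of spread shared by same-numbered arrays or changing with intensity. All members are named; of each pathway list, the called genes or the 3 with the smallest p. Members and lists were chosen with earlier results of these data known. Alternatives covered the pseudocount, filter, normalization, probe set choice, trend, replicate number and leaving out each array.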

Additional observations from a re-analysis of the deposited data

How the results depend on the processing

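Called counts of translation factors stayed at 0 in each direction under 12 of 14 alternatives. The exceptions were the fit without control array 1 (0 to 1 lower over the fits that left out an array, the gene being Eef1a1, in a fit that called 4.81% of all genes) and the fit with the replicate number as a block. That block called 1 higher (Eif1ax) and 3 lower (Eif1b, Eif2b1 and Eif3a), with adjusted p from 0.0185 to 0.0462, and 707 of all genes (12.7%) in place of 121. It also called 2 regulators, 2 synthetases and 1 mitochondrial factor. The arrays share only a number in the labels. Deviations of same-numbered arrays from their group means correlated at 0.522 across genes. Leaving out an array assumes that the lone array of a group varies like the other group. Over all genes 44 passed without the intensity trend, 60 with centring, and 269 and 282 without control array 1 and 2. Without anergic array 1 and 2 they were 54 and 72.

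The median difference of the translation factors was -0.13 with the pseudocount at the array median, -0.091 with centring, and -0.18 to -0.046 without an array. The sign of differences that were not called changed in 35 of 564 values, in 21 of 41 genes. With quantile normalization these were Eef1a1 (0.011), Eef1akmt1 (0.086) and Eef2 (0.081). With centring they were Eef1akmt1 (0.084), Eif3b (0.011), Eif3c (0.089), Eif4b (0.028) and Eif6 (0.0012). With the mean of the probe sets they were Eif2d (-0.047) and Eif5b (-0.069). Leaving out an array gave ranges of -0.15 to 0.11 for Eef1akmt1, -0.30 to 0.064 for Eif2ak1, -0.83 to 0.083 for Eif2b2, -0.11 to 0.50 for Eif2b4, -0.16 to 0.40 for Eif2d and -0.72 to 0.91 for Eif2s2. The ranges were -0.42 to 0.23 for Eif3b, -0.17 to 0.14 for Eif3c, -1.04 to 0.25 for Eif3f, -0.74 to 0.32 for Eif3j1 and -0.034 to 0.20 for Eif3k. They were -0.79 to 0.25 for Eif4a1, -0.43 to 0.037 for Eif4a2, -0.18 to 0.019 for Eif4b, -1.16 to 0.023 for Eif4e2 and -0.056 to 0.24 for Eif4ebp1. For Eif5, Eif5b and Eif6 they were -1.10 to 0.24, -0.16 to 0.52 and -0.38 to 0.17. The cause of these sign changes was not tested.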
